A study of Mus musculus with 32 samples.

Results

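Multipotent progenitor (MPP) 2 was compared with MPP3 in bone marrow of old mice. Both are transitory progenitors just below the haematopoietic stem cell (HSC). Members were chosen by their labels alone: the 2 libraries of MPP2 and the 2 libraries of MPP3 from mice of 20 months, 4 of the 32 RNA-seq libraries in the series. The series covers 8 sorted fractions (HSC, MPP1 to MPP4, granulocyte-macrophage progenitors or GMPs, megakaryocyte-erythrocyte progenitors or MEPs, and common lymphoid progenitors or CLPs) at 10 weeks (Young) and 20 months (Aged), with 2 libraries in each of the 16 groups. All mice were C57BL/6 females. Both fractions were sorted as cells negative for IL-7 (as labelled), Lin and Flt3 and positive for Sca-1, c-kit, CD34 and CD48. The single difference between the gates was CD150, present on MPP2 and absent from MPP3, so the gene of CD150 is no finding here. One account of the study has the marrow of each age pooled and then sorted in duplicate, and another calls the duplicates biological. The p-values below therefore measure the spread between duplicates, pooled for each gene over the 16 groups of the series, which may be technical.

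MPP2 cells are known to be biased towards platelets and red cells, and MPP3 cells towards granulocytes and macrophages. The transcription factor GATA-1 drives megakaryocyte and erythroid genes, and it also acts in mast cells, basophils and eosinophils. PU.1 (Spi1) and C/EBPα (Cebpa) are the main regulators of the granulocyte and macrophage programme. With age, stem cells of the mouse shift their output towards platelets and myeloid cells, so the question here is how far these neighbouring progenitors still differ in old marrow.

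The 4 libraries held 13328009 to 14766841 counts in genes. Levels are given as CPM, counts per 1000000 of the library total after scaling by the trimmed mean of M values (TMM). Where a library had 0 counts of a gene, a level of up to 3 counts (0.195 to 0.219 CPM here) remains possible. This covers counting error alone, since amplified reads without molecular identifiers are not independent molecules. The genes of the sort antigens were read first. Slamf1 (CD150) had 16.9 and 18.4 CPM in the aged MPP2 libraries and 1.47 and 1.53 in the aged MPP3 libraries, in the direction of the gate. Kit had 783 and 779 CPM in MPP2 and 795 and 845 in MPP3. Cd48 had 152 and 153 against 207 and 215 CPM, and Cd34 1003 and 998 against 1354 and 1416 CPM. Il7r was at 0 to 0.268 CPM in each library. Flt3 transcripts were present in both fractions although both gates excluded the protein, at 79.9 and 82.0 CPM in MPP2 and at 167 and 210 in MPP3 (log2 difference -1.22, SE 0.17, adjusted p = 1.93e-04).

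Over the 14154 genes tested the root mean square log2 difference between the means of aged MPP2 and aged MPP3 was 0.479. Between the single libraries of a fraction it was 0.447 within MPP2 and 0.497 within MPP3, which is not on the same footing as a difference of means. Other aged fractions were farther from MPP2, from 0.597 for MPP1 to 2.16 for MEPs. Differential expression was tested gene by gene with the quasi-likelihood F-test of edgeR, and a gene is called at an adjusted p under 0.01. Higher in aged MPP2 were 88 genes (0.622% of those tested), and 102 were higher in aged MPP3 (0.721%). Of these, 36 (0.254%) and 38 (0.268%) differed by at least 1 on the log2 scale. The counts depend on every library: they were 33 and 31 without the first aged MPP2 library, 32 and 36 without the second, 39 and 57 without the first aged MPP3 library, and 36 and 35 without the second. In all 4 cases none of the calls that remained had changed its direction.

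**Figure D1:**
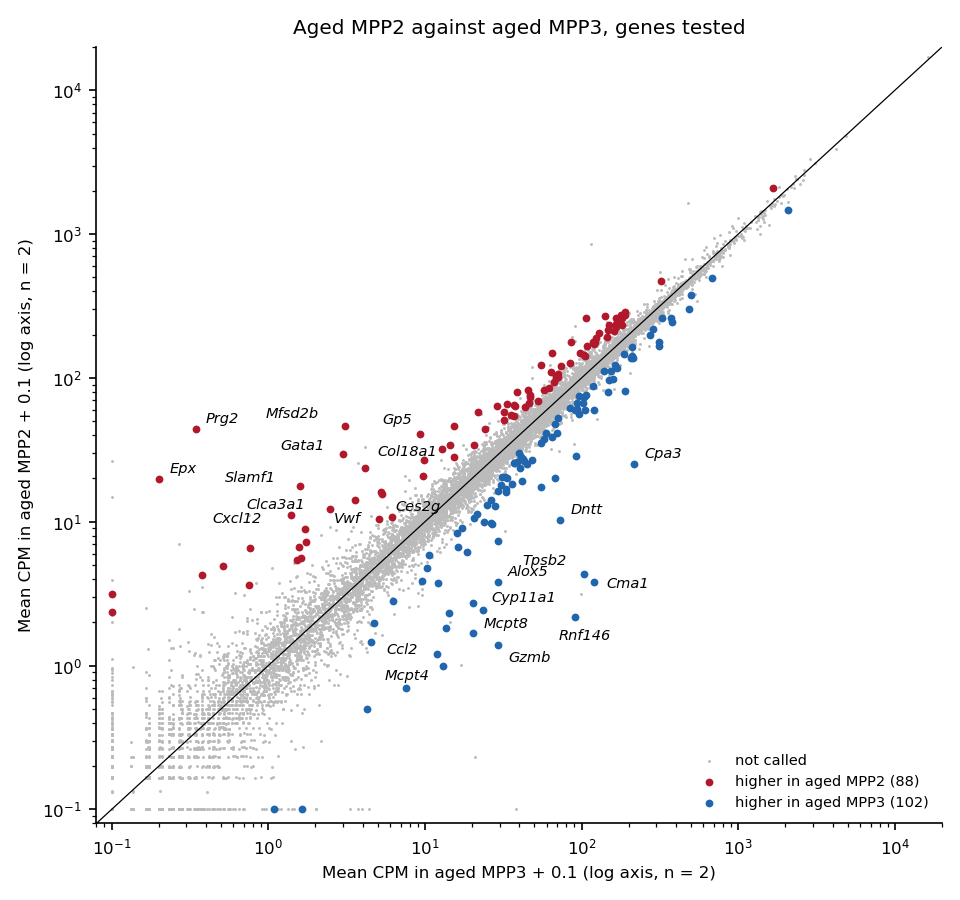
Mean CPM of each gene tested in aged MPP3 (x axis) and in aged MPP2 (y axis), both on log axes after adding 0.1, with n = 2 libraries per fraction. Most genes lie on the diagonal of equal levels, and the 88 red and 102 blue points are the genes called higher in aged MPP2 and in aged MPP3, with Prg2 and Epx far to the left and Cma1, Tpsb2 and Rnf146 far below.

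The 20 leading genes, 10 in each direction, all came from this test with no overlap between the libraries of the fractions and a mean of at least 10 CPM in the higher one. Both aged MPP2 libraries lay above both aged MPP3 libraries for 21% of all genes tested and below them for 26.7%, so a lack of overlap alone is common. Higher in aged MPP2 were Prg2, Epx, Mfsd2b, Gata1, Cxcl12, Col18a1, Clca3a1, Gp5, Vwf and Ces2g. Higher in aged MPP3 were Rnf146, Cma1, Tpsb2, Gzmb, Mcpt4, Mcpt8, Ccl2, Cyp11a1, Cpa3 and Alox5. Of the first set, Prg2 and Epx encode eosinophil granule proteins and Gata1, Gp5, Vwf and Mfsd2b belong to megakaryocytes, platelets or red cells. Of the second, 6 encode granule proteins of mast cells, basophils or cytotoxic cells (Cma1, Tpsb2, Gzmb, Mcpt4, Mcpt8 and Cpa3). The following genes fall outside the rule for named genes and were chosen after their values were seen: Tgm2, Aldh1a1, Ccl9, Ccl4, Ccl3, Srgn, Hdc, Prss34, Thbs1, Ncf4, Ltb, Itgb5, Echdc1 and the single markers of mature T, B and stromal cells. These are bulk libraries, so fewer cells of a kind and less RNA per cell cannot be told apart in any result given here.

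**Figure D2:**
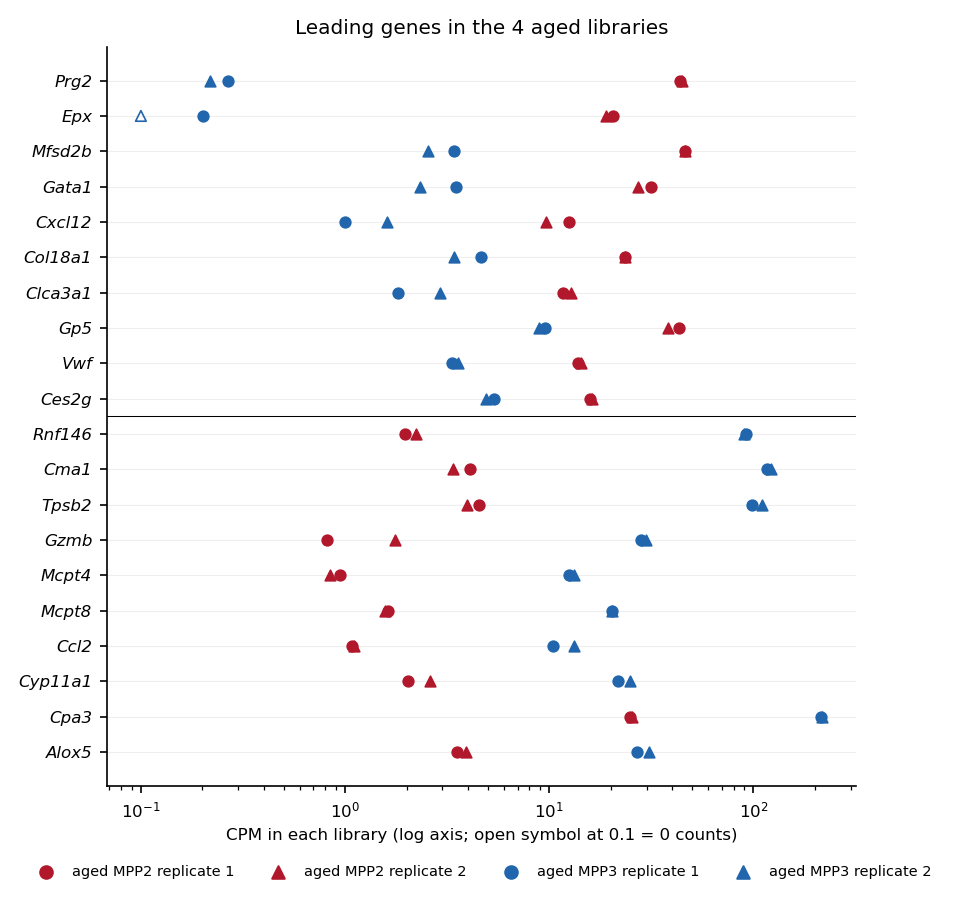
CPM (log axis) of the 10 leading genes in each direction in the 4 aged libraries, circles for replicate 1 and triangles for replicate 2, with 1 open symbol for a library with 0 counts. The duplicates lie close together for most genes, and the fractions are separated by 3.13-fold (Ces2g) or more in the upper panel and by 7.80-fold (Alox5) to 43.5-fold (Rnf146) in the lower panel.

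Some genes of megakaryocytes and red cells were higher in aged MPP2, among them transcription factors and surface receptors. Gata1 (GENCODE M21 on GRCm38, chromosome X, 7959260 to 7978071, minus strand) had 31.4 and 27.1 CPM in the aged MPP2 libraries and 3.48 and 2.33 in the aged MPP3 libraries. Both MPP2 libraries thus stood far above both MPP3 libraries, by 10.1-fold (log2 difference 3.32, SE 0.21, adjusted p = 1.73e-09). Klf1, which drives globin and other late erythroid genes, had 5.83 and 5.14 CPM against 1.27 and 1.75 (1.86, SE 0.34, adjusted p = 0.00245). Gfi1b, a repressor needed for red cells and platelets, had 62.8 and 64.5 CPM against 27.5 and 30.0 (1.15, adjusted p = 5.87e-05). Of 24 regulators of both lineages 4 were called higher and 0 lower, and their median log2 difference was 0.12 beside -0.01 over all genes tested. Tal1, Fli1 and Nfe2, which are active in stem cells too, had differences of 0.23, 0.10 and -0.10 and were not called. The calls of Gata1 and Gfi1b remained without each of the 4 libraries in turn, and that of Klf1 was lost in all 4 cases (adjusted p 0.0162 to 0.0531).

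Of 42 genes of megakaryocytes and platelets, 7 were higher in aged MPP2 and 0 were lower, with a median of 0.60. Gp5, platelet glycoprotein V of the receptor for von Willebrand factor, had 43.3 and 38.1 CPM in MPP2 and 9.58 and 8.89 in MPP3 (log2 difference 2.14, SE 0.17, adjusted p = 8.60e-08). Vwf itself had 13.9 and 14.4 against 3.35 and 3.57 CPM (2.03, SE 0.29, adjusted p = 2.13e-04). Itga2b (CD41), a platelet integrin that is already present on early progenitors, was abundant in both fractions at 276 and 266 against 136 and 145 CPM, and its difference was smaller (0.94, SE 0.14, adjusted p = 4.59e-04). Ptgs1, the cyclooxygenase of platelets, had 125 and 116 against 77.4 and 70.9 CPM (0.70, adjusted p = 0.0031). The other 3 called members, Gp1bb, Treml1 and Sdpr, had means of 3.53, 4.81 and 6.45 CPM in MPP2 and under 1 CPM in MPP3, and are named here after their values were seen. Pf4 (8.89 and 9.38 against 2.41 and 2.33 CPM, adjusted p = 0.0118) and Itgb3 (27.8 and 25.3 against 10.6 and 9.48, adjusted p = 0.0228) were not called. Thbs1, thrombospondin of platelet granules, lay on the other side at 3.12 and 2.86 against 9.78 and 9.18 CPM and was not called (-1.66, SE 0.37, adjusted p = 0.0131). Gp5 and Vwf remained called without each library in turn and Itga2b in 3 of 4 cases (adjusted p = 0.0123 without the first aged MPP3 library). Ptgs1, Gp1bb and Treml1 were called in no such case (adjusted p 0.018 to 0.151) and Sdpr in 1 of 4 (0.00926 to 0.0288), which left 2 to 4 members of the list. DESeq2 called 13 members higher and 1 lower.

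Of 42 red cell genes tested, 5 were higher in aged MPP2 and 0 were lower (median 0.21), and these included Gata1 and Klf1 again. Epor, the receptor for erythropoietin, had 5.97 and 7.16 CPM against 1.41 and 1.53 (2.16, SE 0.35, adjusted p = 8.12e-04). Mfsd2b, which exports sphingosine-1-phosphate from red cells and platelets, had 46.3 and 46.3 CPM against 3.42 and 2.55 (3.95, SE 0.35, adjusted p = 7.64e-07). The last of the 5 was the carboxylesterase gene Ces2g (15.8 and 16.3 against 5.36 and 4.88 CPM), an enzyme rather than a structural protein of the red cell. Haemoglobin was not called: Hba-a2, which has a near-identical copy, had 184 and 162 CPM in MPP2 and 187 and 170 in MPP3 (log2 difference -0.04, SE 1.48). Of 26 genes of heme synthesis and iron transport 0 were called in either direction by edgeR, and 5 had an unadjusted p under 0.05, with a median of 0.04. DESeq2 called 1 of them. Mfsd2b and Ces2g remained called without each library in turn, while Epor was called in 1 of 4 cases (adjusted p 0.00505 to 0.0205), which left 3 to 4 members.

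Of 51 genes typical of the stem cell, 9 were higher in aged MPP2 and 0 were lower (median 0.38), and among the 9 were Slamf1, which the gate selects, Vwf and Itga2b, described above, and Nupr1, a stress response gene at 8.75 and 8.85 CPM against 1.14 and 2.11 that is named after its values were seen (adjusted p = 8.05e-04, and 0.0292 without the first aged MPP3 library). Clu, which encodes the secreted chaperone clusterin, had 66 and 60 counts in the aged MPP2 libraries and 4 and 4 in the aged MPP3 libraries. The ratio of levels was 15.0, with a 95% counting interval of 7.38 to 35.5 (log2 difference 3.86, SE 0.48, adjusted p = 3.64e-05). Socs2, an inhibitor of cytokine signalling, had 25.9 and 27.3 CPM against 8.77 and 10.6 (1.46, SE 0.17, adjusted p = 3.16e-05). Tgm2, a transglutaminase, had 149 and 148 CPM against 63.7 and 64.8 (1.21, adjusted p = 3.16e-05) and the retinal dehydrogenase Aldh1a1 had 123 and 124 against 55.1 and 55.0 (1.17, adjusted p = 5.80e-04). Regulators and markers that define the stem cell were not called: Hlf had 283 and 284 CPM against 267 and 208, Mecom 63.5 and 60.7 against 51.4 and 54.4, and Procr, the endothelial protein C receptor on stem cells, 27.7 and 29.2 against 37.0 and 36.5. In aged HSCs the levels of Clu (215 CPM) and Vwf (419) were far above those in either progenitor. Clu, Socs2 and Tgm2 remained called without each library in turn, and Aldh1a1 in 2 of 4 cases (adjusted p 0.00923 to 0.0131, lost without either aged MPP3 library). Of the list, 6 to 9 members were called in these fits, and DESeq2 called 16.

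Genes of mitosis were called higher in aged MPP2 by small amounts. Of 54 genes that peak in G2 and M phase, 52 had a positive difference, 15 were called higher and 0 lower, and the median was 0.47. Nusap1 (spindle assembly) had 236 and 230 CPM in the MPP2 libraries and 137 and 163 in the MPP3 libraries (log2 difference 0.64, SE 0.10, adjusted p = 6.54e-04). The cyclin gene Ccnb2 had 189 and 192 against 118 and 129 CPM (0.63, adjusted p = 0.00103), and Cdk1, the kinase that starts mitosis, 214 and 212 against 167 and 156 (0.40, adjusted p = 0.0076). Mki67 (229 and 258 against 157 and 132 CPM, adjusted p = 0.0488) and Top2a (656 and 689 against 430 and 479, adjusted p = 0.0136) were not called. Of the 43 genes of S phase 0 were called by edgeR in either direction, 7 had an unadjusted p under 0.05, 3 were called by DESeq2, and the median was 0.01, with Mcm5 at 711 and 674 against 718 and 717 CPM. Leaving out 1 library left 1 to 6 called mitosis genes while the median stayed between 0.45 and 0.53, and DESeq2 called 34. Nusap1 was lost without the first library of either fraction (adjusted p up to 0.0262), Ccnb2 in 3 of 4 cases (up to 0.0282) and Cdk1 in 4 of 4 (0.025 to 0.135).

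**Figure D3:**
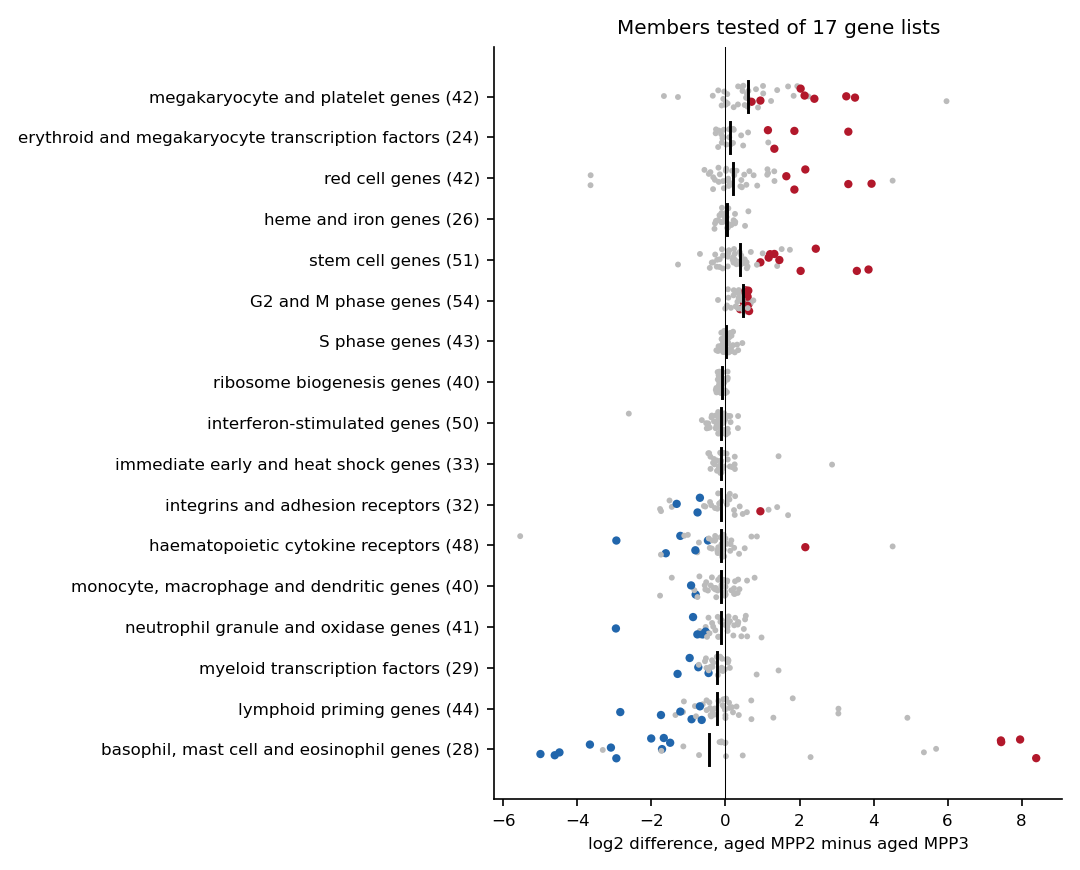
Log2 difference (aged MPP2 minus aged MPP3) of each member tested of 17 gene lists, with the number of members in brackets, red and blue points for members called higher in MPP2 and in MPP3, grey for members not called and a black bar at the median. Platelet, stem cell and mitosis lists have called members on the right alone, myeloid and lymphoid lists on the left alone, and the lists of basophil, mast cell and eosinophil genes, of cytokine receptors and of integrins have both. Values of Prg3 and Ear1, at the far right, are fitted against libraries with 0 counts and depend on the prior count.

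Mast cell and basophil genes formed the strongest contrast in favour of aged MPP3. Of 28 tested genes of basophils, mast cells and eosinophils, 10 were lower in aged MPP2 and 4 were higher. Cpa3 (chromosome 3, 20215620 to 20242181, minus strand), the carboxypeptidase of mast cell and basophil granules, had 214 and 217 CPM in the aged MPP3 libraries and 24.9 and 25.5 in the aged MPP2 libraries. That is 8.54-fold higher in MPP3, with hardly any spread between duplicates (log2 difference -3.09, SE 0.11, adjusted p = 8.15e-14). The mast cell chymase Cma1 had 117 and 122 CPM in MPP3 and 4.07 and 3.39 in MPP2 (-5.00, SE 0.44, adjusted p = 9.76e-05), and the tryptase Tpsb2 had 98.5 and 110 against 4.55 and 3.97 (-4.61, SE 0.30, adjusted p = 6.70e-06). For Cma1, DESeq2 gave the same difference (-4.98) but an adjusted p of 0.946, while the other alternatives gave at most 0.00564. Mcpt4, another mast cell protease and on no list, had 12.5 and 13.2 CPM against 0.95 and 0.846 (-3.83, adjusted p = 0.00114). Mcpt8, the protease that marks basophils, had 20.3 and 20.3 CPM in MPP3 and 1.63 and 1.56 in MPP2 (-3.66, SE 0.28, adjusted p = 3.02e-07). Gzmb (granzyme B) had 28.3 and 29.9 against 0.814 and 1.76 CPM (-4.48, SE 0.60, adjusted p = 5.25e-04).

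Receptors and secreted factors of the same cells were also among the called genes. Fcer1a, the chain of the IgE receptor that binds IgE, had 27.5 and 31.3 CPM in aged MPP3 and 7.06 and 7.55 in aged MPP2 (-2.01, SE 0.32, adjusted p = 0.00221). Il1rl1, the receptor for interleukin-33, had 24.3 and 16.3 against 2.71 and 2.54 CPM (-2.95, SE 0.32, adjusted p = 1.19e-05). Of the chemokine genes in the list, Ccl9 (62.9 and 47.7 against 17.9 and 17 CPM), Ccl4 (26.5 and 26.9 against 10.5 and 8.46) and Ccl3 (11.1 and 13 against 3.39 and 3.91) were lower in aged MPP2. Ccl2, which is on no list, had 10.4 and 13.3 CPM against 1.09 and 1.11 (-3.42, adjusted p = 8.05e-04). Cyp11a1, the enzyme that opens steroid synthesis, had 21.8 and 24.9 against 2.04 and 2.60 CPM (-3.32, SE 0.31, adjusted p = 4.34e-06), and Alox5, the first enzyme of leukotriene synthesis, 27.0 and 31.0 against 3.53 and 3.91 (-2.96, SE 0.32, adjusted p = 9.84e-06). Srgn, the proteoglycan of many granules, was not called and had 745 and 702 CPM in MPP3 and 735 and 698 in MPP2. Hdc, which makes histamine (14.5 and 12.9 against 7.94 and 8.79 CPM), and Ms4a2, another chain of the IgE receptor (6.36 and 8.02 against 3.53 and 2.99), had no overlap between the fractions and were not called. Without each of the 4 libraries in turn, Cpa3, Cma1, Tpsb2, Mcpt8, Il1rl1, Ccl9, Ccl3, Cyp11a1 and Alox5 remained called, Gzmb was lost without the first aged MPP2 library (adjusted p = 0.0227), Ccl4 without the second (0.0147), Ccl2 in 3 of 4 cases (up to 0.0281), and Mcpt4 and Fcer1a in all 4 (0.0105 to 0.0535). Among members lower in MPP2, 8 to 9 of 10 stayed called.

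The 4 members higher in aged MPP2 were the eosinophil genes Prg2, Epx, Prg3 and Ear1. Prg2 (chromosome 2, 84980461 to 84983632, plus strand), the major basic protein of eosinophil granules, had 644 and 687 counts in the aged MPP2 libraries and 4 and 3 in the aged MPP3 libraries. In CPM these are 43.7 and 44.7 against 0.268 and 0.219, a ratio of 181 with a 95% counting interval of 87.6 to 451 (log2 difference 7.45, SE 0.63, adjusted p = 6.05e-07). Epx (chromosome 11, 87864000 to 87875536, minus strand), eosinophil peroxidase, had 303 and 291 counts against 3 and 0, or 20.6 and 18.9 CPM against 0.201 and 0 (7.44, SE 0.81, adjusted p = 1.05e-04). The ratio of its counts was 188, with an interval of 64.2 to 917. Prg3 had 31 and 37 counts in MPP2 and 0 in both MPP3 libraries, at least 10.8-fold higher against a floor of 3 counts per library, and Ear1, an eosinophil ribonuclease, had 43 and 49 against 0, at least 14.6-fold higher. Prg3 and Ear1 are named after their values were seen, and both have close copies in the genome. Aged MPP3 was thus at or near 0 for all 4 genes. The basophil protease gene Prss34 lay on the same side as the eosinophil genes (3.94 and 5.40 CPM against 0.67 and 1.24) and was not called (adjusted p = 0.0221). Prg2 and Epx remained called without each of the 4 libraries in turn, and Prg3 and Ear1 in none of these cases (adjusted p 0.0233 to 0.0738). The list's median, -0.44, says little of either set and ran from -0.74 to 0.02 as libraries were left out, with the positive value without the first aged MPP3 library.

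The levels of these genes in the other fractions were read from libraries outside the comparison. Among the aged fractions the mast cell genes Cma1, Tpsb2 and Mcpt4 were found in MPP3 and, lower, in MPP2: each was at 0 counts in aged HSCs, MPP1, GMPs, MEPs and CLPs, and in aged MPP4 Cma1 was at 0.145 and Tpsb2 at 0.364 CPM. Cpa3 was higher in aged MPP3 (215 CPM) than in aged GMPs (87.2 CPM). The eosinophil genes had their highest level in aged GMPs, at 2511 CPM for Prg2, 1132 for Epx and 139 for Prg3, and aged CLPs held 143, 64.8 and 6.91 CPM. The level in aged MPP2 was 1.76%, 1.74% and 1.62% of that in aged GMPs for these genes, and 30.9%, 30.5% and 32.7% of that in aged CLPs. For Ear1 the shares were 4.04% and 39.1%. In aged MPP4 and in aged MEPs, Prg2, Epx and Prg3 were at 0 CPM. Of the main GMP genes, none of Mpo (1149 CPM in aged MPP2, 1578 in aged MPP3 and 68354 in aged GMPs), Ctsg (53.2, 86.1 and 3174) and Elane (183, 125 and 14546) was called between MPP2 and MPP3. Whether cells of another fraction took part in the levels of aged MPP2 was not tested.

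**Figure D4:**
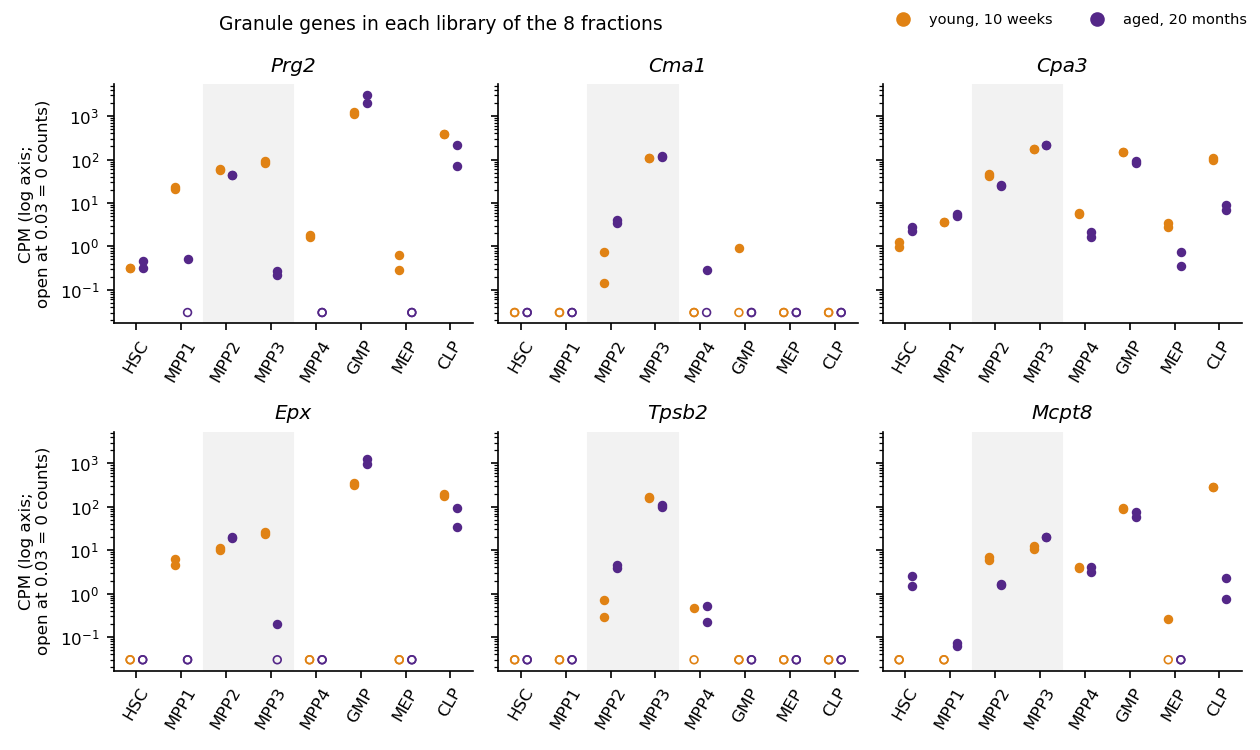
CPM (log axis) of eosinophil genes (Prg2, Epx), mast cell genes (Cma1, Tpsb2) and genes of mast cells and basophils (Cpa3, Mcpt8) in each library of the 8 fractions, orange for young and purple for aged, with open circles for 0 counts and a grey band over MPP2 and MPP3. Aged MPP3 is at or near 0 for Prg2 and Epx while the young MPP3 libraries are at 84.8 and 90.3 CPM for Prg2, and Cma1 and Tpsb2 are high in MPP3 at both ages.

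The promoters of 4 called genes are shown because GATA-1 acts in both sets of cells that separate this pair, and these 4 were picked because they hold the GATA letters. Each is the 200 bases before the transcription start in RefSeq on GRCm38.p6, read 5′ to 3′ on the strand of the gene, with the GATA letters AGATAA or TTATCT in capitals. Gp5 and Epor were higher in aged MPP2 and Cpa3 and Fcer1a in aged MPP3.
Gp5, chr16:30310782-30310981, minus strand: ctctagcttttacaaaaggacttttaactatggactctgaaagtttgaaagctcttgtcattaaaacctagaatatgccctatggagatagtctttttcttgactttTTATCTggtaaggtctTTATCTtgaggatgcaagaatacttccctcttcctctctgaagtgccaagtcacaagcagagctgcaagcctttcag
Epor, chr9:21963577-21963776, minus strand: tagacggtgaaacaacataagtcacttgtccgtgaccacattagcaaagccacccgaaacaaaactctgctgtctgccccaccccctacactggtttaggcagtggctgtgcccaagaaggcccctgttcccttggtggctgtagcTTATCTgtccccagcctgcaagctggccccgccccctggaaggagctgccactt
Cpa3, chr3:20242182-20242381, minus strand: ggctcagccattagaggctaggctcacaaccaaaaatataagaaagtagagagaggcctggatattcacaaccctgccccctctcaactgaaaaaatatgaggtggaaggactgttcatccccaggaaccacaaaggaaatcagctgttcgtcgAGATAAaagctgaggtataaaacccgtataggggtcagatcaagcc
Fcer1a, chr1:173227230-173227429, minus strand: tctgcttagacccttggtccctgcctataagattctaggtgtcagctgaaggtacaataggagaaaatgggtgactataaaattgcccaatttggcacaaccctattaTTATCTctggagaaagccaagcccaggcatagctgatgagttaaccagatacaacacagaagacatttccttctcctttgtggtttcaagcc
The first letter of the match lies 93 and 77 bases before the start in Gp5, 54 in Epor, 46 in Cpa3 and 92 in Fcer1a. Not shown are the lymphoid gene Dntt, with the letters 112 bases before its start, and Il1rl1. Il1rl1 had them 103 bases before 1 start and 217 bases before its other start, which is outside the 200 bases. In windows of the same length the letters were not found for Gata1, Klf1, Mfsd2b, Pf4, Epx, Prg3, Cma1, Mcpt8 and Gzmb, so they stood near the start of some genes on each side and not of others. The table of 300-base windows (250 bases before and 50 after the start) had an entry for 64 of the 88 genes higher in aged MPP2 and for 73 of the 102 lower ones. The letters AGATAA on either strand were in 6.76% of 74 windows of higher genes, in 9.43% of 106 windows of lower genes, and in 6.93% of all windows of genes tested (11.2% of the whole table). For C/EBP (TTGCNNAA) the shares were 12.2%, 12.3% and 8.84% (10.8% of the table), and for PU.1 (GAGGAAGT) 1.35%, 7.55% and 3.27% (3.20%). A match of letters is a description and not a binding site.

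Of 29 transcription factors of granulocytes and macrophages, 4 were lower and 0 higher, with a median of -0.23. Cebpa had 18.5 and 21.4 CPM in MPP2 and 36.6 and 29.7 in MPP3 (log2 difference -0.73, SE 0.15, adjusted p = 0.00842), and Spi1, which encodes PU.1, had 110.5 and 114 against 142 and 167 (-0.46, SE 0.08, adjusted p = 0.00311). Gfi1, a repressor that favours granulocytes, had 16.4 and 17.3 against 33.8 and 32.2 CPM (-0.97, SE 0.20, adjusted p = 0.00655). Id2, an inhibitor of E proteins, had 6.72 and 6.51 against 14.5 and 18 CPM (-1.29, SE 0.18, adjusted p = 1.51e-04). Irf8, which drives monocytes and dendritic cells, was at 22.3 and 21.3 against 30.7 and 33.2 CPM and was not called (adjusted p = 0.0288). Of the 29 factors, 7 had a positive difference. Cebpe was among them at 2.04 and 2.73 against 1.14 and 1.53 CPM and was not called (0.84, adjusted p = 0.436). Of the 4 called factors, Id2 alone remained called without each library in turn. Spi1 was called in 1 of 4 cases (adjusted p up to 0.118), and Cebpa and Gfi1 in none (0.0131 to 0.158). Cebpa also lost its call with DESeq2 size factors (0.0102) and in fits of 8 (0.0101) or 4 libraries (0.0571), and Spi1 in the same smaller fits (0.0169 and 0.0525).

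Of 41 granule and oxidase genes of neutrophils tested, 5 were lower in aged MPP2 and 0 higher (median -0.12), and these were Alox5, Hk3, Ncf1, Plac8 and Ncf4. Hk3, a hexokinase of myeloid cells, had 81.6 and 78.6 against 146 and 148 CPM (-0.88, SE 0.17, adjusted p = 0.004), Plac8 250.02 and 242 against 398 and 358 (-0.62, SE 0.11, adjusted p = 0.00132), and Ncf1, a subunit of the NADPH oxidase, 18.3 and 17.6 against 29.6 and 31.1 (-0.76, SE 0.15, adjusted p = 0.00418). The proteins that fill the first granules were not called. Mpo (myeloperoxidase) had 1163 and 1135 CPM in MPP2 and 1592 and 1565 in MPP3 with an SE of 0.38 on a log2 difference of -0.46, and Elane (neutrophil elastase) went the other way at 184 and 181 against 126 and 124 (0.55, SE 0.37). The duplicates of each fraction lay close together for both genes, and the SE draws on the duplicates of all 16 groups. Of 40 genes of monocytes, macrophages and dendritic cells, Emb (183 and 172 against 310 and 310 CPM, -0.81, adjusted p = 9.84e-06) and the signalling adaptor Tyrobp (8.55 and 8.07 against 14.3 and 17.4, -0.93, adjusted p = 0.00456) were lower and 0 were higher. Csf1r, the receptor for the macrophage growth factor, was not called at 11.5 and 12.8 against 13.7 and 12.4 CPM. Of the 40 monocyte genes, 13 had a positive difference. Among them were F13a1 (30.7 and 28.6 against 23.6 and 23.1 CPM) and Fcgr3 (8.82 and 8.85 against 8.24 and 6.78), neither of them called. Emb remained called without each library in turn, Plac8 and Tyrobp in 1 of 4 cases (adjusted p up to 0.0978), Ncf4 in 1 of 4 (up to 0.162), and Hk3 and Ncf1 in none (0.0225 to 0.0801). DESeq2 called 10 members of the neutrophil list and 7 of the monocyte list, all lower.

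Of 44 early lymphoid genes tested, 6 were lower in aged MPP2 and 0 higher (median -0.24). Dntt, the terminal transferase of lymphoid progenitors, had 9.70 and 10.5 CPM in MPP2 and 72.4 and 72.8 in MPP3, 7.17-fold higher in MPP3 (log2 difference -2.84, SE 0.12, adjusted p = 7.80e-11). Satb1, a chromatin organizer of lymphoid cells, had 18.4 and 21.9 against 66.8 and 67.9 CPM (-1.74, SE 0.14, adjusted p = 8.60e-08). Cd52 had 8.01 and 10.0 against 15.9 and 18.1 CPM (-0.92, adjusted p = 0.00466). Flt3, one of the antigens of the gate, and Ltb were also among the 6. Both aged MPP2 and aged MPP3 were far below aged MPP4, which held 1067 CPM of Dntt and 327 of Satb1. Ikzf1 (141 and 145 against 151 and 130.5 CPM) and Notch1 (30.6 and 33.2 against 42.4 and 40.9) were not called. Dntt, Satb1 and Flt3 remained called without each library in turn, Ltb in 1 of 4 cases (adjusted p up to 0.0885), and Cd52 in none (0.0155 to 0.12), which left 3 to 4 members.

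Of 48 cytokine receptors, Epor alone was higher in aged MPP2, and Il1rl1, Il10ra, Flt3, Il1r1 and Csf3r were lower (median -0.13). Il10ra, the receptor for interleukin-10, had 6.24 and 5.86 CPM against 18.6 and 18.4 (-1.61, SE 0.20, adjusted p = 3.21e-05), Il1r1, the interleukin-1 receptor, 59.6 and 60.2 against 104 and 106 (-0.81, SE 0.17, adjusted p = 0.00855), and Csf3r, the receptor for the granulocyte factor G-CSF, 202 and 194 against 260 and 289 (-0.47, SE 0.10, adjusted p = 0.00824). A chain of the receptor for GM-CSF, Csf2rb, was not called at 83.3 and 81.8 against 80.4 and 80.5 CPM. Among 32 integrins and adhesion receptors, Itga2b was higher in aged MPP2, and 3 were lower, among them Itgb5 and Itgb7. Itgb7 had 42.5 and 40.0 against 70.1 and 69.1 CPM (-0.75, SE 0.16, adjusted p = 0.00875). Il10ra remained called without each library in turn, Itgb5 in 2 of 4 cases (adjusted p up to 0.0224, lost without the first aged MPP2 or the second aged MPP3 library), and Il1r1, Csf3r and Itgb7 in none (0.0157 to 0.147), so that 3 receptors and 0 to 1 adhesion genes stayed lower.

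Some lists showed no call at all. Of 50 interferon-stimulated genes (median -0.13), 33 immediate early and heat shock genes (-0.12) and 40 genes of ribosome biogenesis (-0.10), 0 were called in either direction by edgeR, and 6, 5 and 4 had an unadjusted p under 0.05. DESeq2 called 1 immediate early gene lower and none of the others. Fos had 3810 and 3991 CPM in aged MPP2 and 4000 and 4383 in aged MPP3.

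Markers of mature cells were read as 5 lists. In the aged MPP2 and aged MPP3 libraries the summed CPM was 175 to 178 and 210 to 216 for T and NK cells, of which Nkg7 alone held 98.0%, and 189 to 198 and 183 to 185 for B and plasma cells, with 58.3% from Xbp1. Cd3d, Cd3g, Gzma, Ms4a1, Pax5 and Cd22 had 0 counts in each of the 4 libraries, and Cd3e was under 1 CPM. For macrophages the sum was 84.7 to 86.0 in MPP2 and 64.2 to 71.4 in MPP3, and for mature neutrophils 319 to 326 and 224 to 301, with 0 of 12 members called by edgeR in either list (3 and 0 at an unadjusted p under 0.05, and 1 and 0 by DESeq2). Of the T and NK cell and the B and plasma cell markers 0 were called by either tool, and 1 and 3 had an unadjusted p under 0.05. Among 11 tested endothelial and stromal genes, Cxcl12 was higher in aged MPP2 at 12.5 and 9.64 CPM against 1.00 and 1.60 (3.08, SE 0.61, adjusted p = 0.00656). This chemokine is best known from marrow stroma. Of the 11 genes 7 had a positive difference, with a median of 1.10. The summed CPM of the list was 96.7 to 97.3 in MPP2 and 86.5 to 102 in MPP3, with 69.4% from Pecam1. Col3a1 and Pdgfra had 0 counts in each of the 4 libraries, and Cdh5 and Col1a1 were under 1 CPM. Whether stromal cells took part in the level of Cxcl12 was not tested. The call of Cxcl12 was lost without each of the 4 libraries in turn (adjusted p 0.0267 to 0.0884). Col18a1, a basement membrane collagen on no list, had 23.5 and 23.6 CPM against 4.62 and 3.43 (2.54, SE 0.43, adjusted p = 0.00192) and lost its call in the same way (0.0179 to 0.0552). Clca3a1 had 11.7 and 12.8 against 1.81 and 2.92 CPM and was called in 2 of 4 cases (adjusted p up to 0.0243, lost without the second aged MPP2 or the first aged MPP3 library).

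Rnf146, which encodes a ubiquitin ligase, was the leading gene in the other direction and belongs to no list. It had 1.97 and 2.21 CPM in the aged MPP2 libraries and 92.5 and 89.6 in the aged MPP3 libraries (log2 difference -5.44, SE 1.14, adjusted p = 0.00861). A low level was not particular to aged MPP2. Apart from the pair of aged MPP2 libraries, 3 of the 32 were under 20 CPM, with the duplicates at 96.7 and 1.41 CPM in young MPP2, 16.3 and 98.3 in young MEPs and 81.8 and 13.9 in aged MPP4. Duplicates of 1 group thus differed by as much as the pair, and the 27 libraries not under 20 CPM held 68.6 to 113. The gene overlaps Echdc1 on the opposite strand (16.3 and 13.7 against 12.3 and 13.3 CPM). Use of strand in counting was not stated, and the part of read assignment in this value was not tested. Its call was lost without each of the 4 libraries in turn (adjusted p 0.0281 to 0.136) and in the fit of 8 libraries (0.0621).

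Bias towards a lineage was then read from genes defined outside the pair. Aged MEPs and aged GMPs were compared in the same fit, and genes called with a log2 difference of at least 2 made a MEP side of 670 genes (4.73% of those tested) and a GMP side of 1874 genes (13.2%). Of the MEP side, 24 (3.58%) were higher in aged MPP2 and 4 (0.597%) lower, beside 0.622% and 0.721% of all genes. Of the GMP side, 8 (0.427%) were higher and 72 (3.84%) lower. Read the other way, 27.3% of the 88 genes higher in aged MPP2 were on the MEP side and 9.09% on the GMP side, while of the 102 lower genes 70.6% were on the GMP side and 3.92% on the MEP side. The medians of the whole sides were 0.12 and -0.12, and 642 of 670 and 1794 of 1874 genes were not called. With 1 library left out, 11 to 15 genes of the MEP side were higher and 1 to 3 lower, and 3 to 5 genes of the GMP side were higher and 22 to 39 lower. The fewest came without the first aged MPP3 library for MEP genes and without the first aged MPP2 library for GMP genes.

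The same pair at 10 weeks gave a comparison with no library in common. The spread of each gene came from the same fit of all groups, so the calls at both ages are not independent. In young cells 338 genes (2.39%) were called, of which 188 (1.33%) were higher in MPP2 and 150 (1.06%) in MPP3. Of the 190 genes called in aged cells (1.34% of those tested), 140 were also called in young cells, which is 73.7% of the aged and 41.4% of the young calls, and all 140 had the same direction. The sign of the difference was the same in 184 of the 190. Gata1 had a log2 difference of 2.35 in young cells, Gp5 1.66, Mfsd2b 2.89, Dntt -3.38, Satb1 -1.70 and Cma1 -7.93, each called at both ages. Of the 54 mitosis genes 39 were called higher in young MPP2 (median 0.72) and 15 in aged MPP2, and of the 43 S phase genes 12 were called higher in young MPP2. The aged minus young difference was positive in 2 of the 54 mitosis genes (median -0.22) and in 0 of the 43 S phase genes (-0.26). Of 41 neutrophil genes 10 were lower in young MPP2 (median -0.64) and 5 in aged MPP2 (-0.12). Of 40 monocyte genes 9 (-0.51) and 2 (-0.13) were lower. Of 42 platelet genes 4 were higher in young MPP2 (0.48) and 7 in aged MPP2 (0.60). Whether these lists differ with age was not tested over the list, and 0 of their members had a called difference between ages.

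The difference between ages was tested for each gene as the aged difference minus the young difference. Of 14154 genes, 4 were called (0.0283%), 2 higher and 2 lower (0.0141% each), and 429 (3.03%) had an unadjusted p under 0.05. Prg2 had 56.5 and 60.9 CPM in the young MPP2 libraries and 90.3 and 84.8 in the young MPP3 libraries, so that in young cells MPP3 was not below MPP2. Its difference between ages was 8.02 (SE 0.74, adjusted p = 2.13e-05). Epx had 11.1 and 9.93 CPM in young MPP2 and 23.4 and 26 in young MPP3 (8.67, SE 0.92, adjusted p = 0.00138). Among the young and aged MPP2 and MPP3 groups, aged MPP3 alone was near 0 for both genes, and MPP2 held them at both ages. Outside the pair, aged MPP4 and aged MEPs were also at 0 CPM for both genes. The other eosinophil genes, Prg3 (adjusted p = 0.0867) and Ear1 (adjusted p = 0.115), were not called.

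The mast cell and basophil genes Mcpt8 and Cpa3 separated the pair more in aged than in young cells. Mcpt8 had 5.95 and 6.97 CPM in young MPP2 and 12.7 and 10.8 in young MPP3, beside 1.63 and 1.56 and 20.3 and 20.3 in aged cells (difference between ages -2.80, SE 0.39, adjusted p = 0.00349). Cpa3 had 42.7 and 45.3 CPM in young MPP2 and 177 and 178 in young MPP3 (-1.08, SE 0.15, adjusted p = 0.0018). The chymase and tryptase genes had the opposite sign and were not called: Tpsb2 was at 0.501 CPM in young MPP2 and 162 in young MPP3 (3.69, adjusted p = 0.0347), and Cma1 at 0.442 and 108 (2.94, adjusted p = 0.777). Clu (3.34) and Socs2 (1.35) also had an adjusted p of 0.0347. With each of the 8 libraries of the test left out in turn, Prg2 stayed called in 8 of 8 cases, Epx in 5 of 8 (adjusted p 0.00501 to 0.0175), Cpa3 in 1 of 8 (0.00996 to 0.0282) and Mcpt8 in 0 of 8 (0.0106 to 0.0734).

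**Figure D5:**
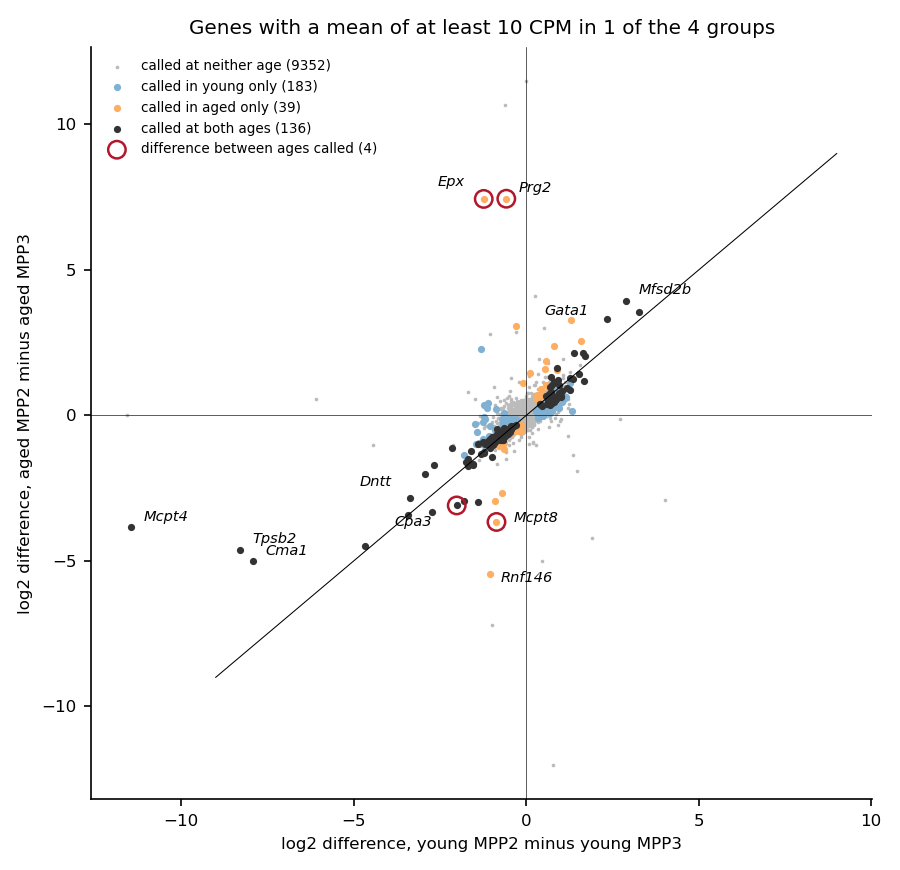
Log2 difference between MPP2 and MPP3 in young cells (x axis) and in aged cells (y axis) for the 9710 genes that reached an average of 10 CPM in 1 of the 4 groups, with the line of equal differences. The 136 black points, called at both ages, lie in the lower left and upper right, and the 4 circled genes, called for a difference between ages, are Prg2 (7.45 in aged cells) and Epx (7.44) far above the line and Mcpt8 and Cpa3 below the line.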

How the data were processed

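RNA of sorted marrow cells was amplified with a SMARTer kit, sonicated and sequenced as single reads. The authors mapped the reads to mm10 with TopHat2 (2.0.13) and Bowtie2 (2.1.0), as the submitters' processing notes name them, and deposited raw counts per gene made with StringTie, with replicates kept apart. Whether counting used strand is not given in the sources used here. A table of DESeq2-normalized values and 8 tables of the authors' comparisons of aged with young cells (fold changes, test statistics and p-values) were not used.

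From the counts, differences were tested in edgeR (4.0.16, in R 4.3.3) by its quasi-likelihood method in 1 fit of 16 group means over all 32 libraries, after TMM scaling and filterByExpr (14154 of 24421 genes), with Benjamini-Hochberg adjustment and a threshold of 0.01. The adjusted p-values in the text come from this fit unless another is named. The procedure was also run on simulated data in which all genes had the same spread. That run therefore does not show how it does on genes of unequal spread. Some 27 names in the table had been turned into dates (0.188% of counts) and were kept in the fit but not named. Amplification without molecular identifiers can add spread to low counts.

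Named genes were the 10 called genes with the largest difference in each direction (no overlap, at least 10 CPM in the higher group, no sort antigens), the key genes of 23 lists with up to 4 called members each at 10 CPM or more, and the genes called for a difference between ages. The other genes in the text were chosen after their values were seen. The members and lists were chosen with earlier results of these data known. Positions came from GENCODE M21 and promoters from RefSeq. Alternatives were DESeq2 (1.42.0), other scaling, filters and thresholds, smaller fits, a replicate block and leaving out each library. A result at an adjusted p over the threshold is not shown to be equal. Some members of the lists are counted but not reported by name here.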

Additional observations from a re-analysis of the deposited data

Results flagged for a closer look

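For 4 genes the difference between MPP2 and MPP3 was not the same at both ages, by the test of that difference in edgeR. For Prg2 the aged difference exceeded the young one by 8.02 on the log2 scale (adjusted p = 2.13e-05), and for Epx by 8.67 (adjusted p = 0.00138). Both genes were near 0 in aged MPP3 and higher in young MPP3 than in aged MPP2 (for Prg2, 84.8 and 90.3 against 43.7 and 44.7 CPM). For Mcpt8 the aged difference minus the young difference was -2.80 (adjusted p = 0.00349), and for Cpa3 it was -1.08 (adjusted p = 0.0018), both further towards MPP3 in aged cells. With 1 library left out Prg2 kept its call in 8 of 8 cases and Mcpt8 in 0 of 8.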

How the results depend on the processing

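The numbers of genes higher and lower in aged MPP2 were 191 and 197 at an adjusted p under 0.05, 36 and 38 with a log2 difference of at least 1, 236 and 210 with DESeq2, 194 and 184 in a fit of the 8 MPP2 and MPP3 libraries, and 63 and 52 in a fit of the 4 libraries of the pair. In the same order the young numbers were 306 and 315, 24 and 64, 324 and 376, 360 and 312, and 292 and 255. For the difference between ages, 8 genes were higher at an adjusted p under 0.05, 23 higher and 6 lower with DESeq2, and 19 and 4 in the fit of 8 libraries. With 1 library left out, the aged numbers ran from 32 to 39 higher and from 31 to 57 lower, the young ones from 75 to 99 and from 44 to 71, and those for the difference between ages from 1 to 3 and from 0 to 2. Size factors of DESeq2, no filter and a filter at 5 CPM kept each number within 1.5 times. Of the 190 aged calls DESeq2 shared 188, the fit of 8 libraries 175, that of the 4 libraries 92 and the fits with 1 library left out 63 to 75, none in the opposite direction. Size factors moved the median of all genes from -0.01 to 0.

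Replicate numbers are shared by the groups. The correlation of deviations over the 28 pairs of aged groups ran from -0.0443 to 0.0413, with none over 0.1. Noise of low counts enters this correlation, which runs over all genes tested. It therefore cannot show whether libraries of equal number share a pool or a sort. A replicate block within age gave 87 higher and 95 lower genes in aged cells, 182 and 142 in young cells, and 3 and 2 for the difference between ages.

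With 2 libraries in a group, most calls rest on each library. Genes with few counts are the least sure, and how reads were split between copies such as Ear1 and Ear2, Prg2 and Prg3 or the haemoglobin genes was not tested.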

Other observations

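Of the 190 genes called between aged MPP2 and aged MPP3, 118 were on none of the gene lists, and the following were chosen after their values were seen. Apoe, a lipid carrier, had 254 and 267 CPM in the aged MPP2 libraries and 98.8 and 114 in the aged MPP3 libraries (log2 difference 1.29, SE 0.14, adjusted p = 5.77e-06). Tgfbr3, a co-receptor for TGF-beta, had 56.2 and 59.8 CPM against 21.2 and 22.0 (1.42, SE 0.14, adjusted p = 1.63e-06). In the other direction the membrane protein gene Cd53 had 171 and 161 CPM in MPP2 and 329 and 299 in MPP3 (-0.92, SE 0.12, adjusted p = 9.76e-05), and Adgrg3, an adhesion receptor, 60.9 and 58.2 against 118 and 123 (-1.02, SE 0.12, adjusted p = 2.49e-05). The libraries of the fractions did not overlap for any of these genes, and each was called in the same direction in young cells. Further genes of mitosis outside the list were also higher in aged MPP2, among them Ccnb1 (0.56, adjusted p = 2.57e-04), Plk1 (0.62, adjusted p = 0.00275) and Prc1 (0.66, adjusted p = 0.00114).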
